A study of Mus musculus with 8 samples.

Results

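The genes described here were 9 components of the CSF1 receptor and DAP12 signalling pathways of microglia, taken by symbol from the 27998 genes of the count tables. They were Csf1, its receptor Csf1r, the related cytokine receptor genes Csf2ra, Csf2rb, Csf2rb2 and Csf3r, the surface receptor Trem2, the adaptor Tyrobp (which encodes DAP12) and the kinase Syk. All 9 were detected in each of 8 libraries, in all cells and inside and outside the cells that held UMIs of the proliferation genes Mki67 or Top2a, except that Csf1, Csf2rb and Csf2rb2 had no UMI in the 3 such cells of the naive control library. A UMI marks 1 captured RNA molecule.

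The libraries were single-cell RNA-seq (10x Genomics 3′ chemistry) of YFP (+) cells sorted from the lumbar spinal cord of young adult C57BL/6 mice, which the labels call microglia. Control mice were Cx3cr1-yfp-creER/+ and A20 cKO mice were Cx3cr1-yfp-creER/+; Tnfaip3 fl/fl, where Tnfaip3 encodes the ubiquitin-editing enzyme A20. Cells came from naive mice and from mice 1, 2 and 3 days after sciatic nerve transection, which the labels give as bilateral, with 1 library per genotype and time point. Each library pooled the cords of several animals, so no group had a replicate, and intervals in parentheses are 95% intervals that cover counting error only. Both genotypes carried the tamoxifen-inducible Cre and YFP in 1 copy of the Cx3cr1 locus, which is active in microglia and also in some other macrophages and monocytes, and experiments followed tamoxifen injections per the methods. The methods also state that sorted cells were held in serum-free medium with TGF-β2, IL34 and cholesterol. IL34 is a ligand of CSF1R, and all libraries shared this step. Control and A20 cKO below mean the libraries so labelled. Tnfaip3 reached 6.83 to 25.3 UMIs per 1000000 (CPM) in the control libraries and 42.3 to 67.7 in the A20 cKO libraries. These tags come from the 3′ end of the transcript, and which exons were floxed is not given in the sources used here, so this level does not check the deletion.

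CSF1 and IL34 bind CSF1R, a receptor tyrosine kinase on which microglia depend for survival and division. TREM2 recognises lipids and lipoproteins and has no signalling motif of its own: it pairs with DAP12, whose ITAM motif recruits the kinase SYK. The receptors for GM-CSF (CSF2RA with the common β chain CSF2RB) and for G-CSF (CSF3R) signal through JAK kinases and STAT factors, and Csf2rb2 encodes a mouse β chain that serves the receptor for IL-3.

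The libraries did not form 1 set. The 4 A20 cKO libraries and control day 3, hereafter the linked libraries, shared 256 cell barcodes among their 10 pairs, against 27 in the 3 pairs of the other control libraries and 98 in the 15 pairs across. Summed over 8 microglial markers the level was 10992 to 18310.3 CPM in the linked libraries and 19086 to 24061 CPM in the other 3, with all 8 markers detected in every library. Markers of other cells were also higher in the linked libraries: 6 neutrophil markers summed to 30.3 to 54.8 CPM against 0 to 0.142, 4 monocyte markers to 24.98 to 85.0 against 1.85 to 3.70, and 4 choroid plexus and ependyma markers to 129 to 407 against 0 to 0.142. Oligodendrocyte markers summed to 149 to 202 CPM against 60.1 to 83.3, astrocyte markers to 8.23 to 26.7 against 2.21 to 3.29 and neuron markers to 4.80 to 11.2 against 1.49 to 4.32. Those of endothelium and pericytes (25.3 to 42.6 against 13.5 to 51.2) and of T, NK and B cells (0 to 0.787 against 0.356 to 3.67) overlapped. S100a8, S100a9 and Ttr were at 0 in control naive, control day 1 and control day 2. The 5 border-associated macrophage markers summed to 0.498 to 3.63 CPM in all libraries, with Cd163 at 0 in each. The 4 control libraries hold both kinds, so day 3 is the only time point at which genotype can be compared within the linked libraries, and 2 of the 8 comparisons below cross the split: control day 3 against control naive and A20 cKO naive against control naive. In these 2 the group and the split cannot be told apart. How many of all genes separate in level along the split was not counted, so a separation of a member is not read as particular to it.

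The kept cells numbered 558 to 3585 per library, with 1620481 to 15817426 UMIs in the sums and a median of 2780 to 4274 UMIs per cell. Cells with Mki67 or Top2a UMIs made up 0.528% of control naive, 1.93% of control day 1, 46.7% of control day 2 and 21.2% of control day 3, and 6.50%, 8.47%, 27.6% and 16.1% of A20 cKO naive, day 1, day 2 and day 3. These cells were deeper, for example 4635 against 3552.5 UMIs at the median of control day 2.

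The 250 bases before the RefSeq start of 3 of the genes are shown because Csf1 and Csf2ra were higher, and Trem2 lower, in each of the linked libraries than in the other 3. RefSeq promoters on GRCm38.p6 were matched for 6 of the 9 genes (Csf1, Csf2ra, Csf2rb2, Csf3r, Trem2 and Syk). Capitals mark a match to the κB motif in Csf1 and matches to GAGGAA, the core letters of sites bound by the macrophage factor PU.1, in Csf2ra and Trem2. Both motifs were searched on both strands, and the capitals in Csf1 and Trem2 read as the motif on the opposite strand. In Csf2ra the capitals are 2 adjoining matches. Its RefSeq start lies inside the gene as given by the coordinates below, which reach 61228429. The last bases shown for Csf2ra, with most of the capitals, are therefore within that annotated gene.
Csf1, chr3:107760470-107760719, minus strand: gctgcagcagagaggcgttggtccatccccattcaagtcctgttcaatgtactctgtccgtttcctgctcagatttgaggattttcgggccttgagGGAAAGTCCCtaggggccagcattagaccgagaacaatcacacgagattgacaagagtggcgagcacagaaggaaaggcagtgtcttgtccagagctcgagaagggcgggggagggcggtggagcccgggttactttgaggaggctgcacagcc
Csf2ra, chr19:61228419-61228668, minus strand: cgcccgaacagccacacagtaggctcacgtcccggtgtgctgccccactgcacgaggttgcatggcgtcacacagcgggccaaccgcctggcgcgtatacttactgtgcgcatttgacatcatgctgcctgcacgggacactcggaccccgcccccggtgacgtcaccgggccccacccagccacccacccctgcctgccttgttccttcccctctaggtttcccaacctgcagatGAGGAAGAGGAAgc
Trem2, chr17:48346151-48346400, plus strand: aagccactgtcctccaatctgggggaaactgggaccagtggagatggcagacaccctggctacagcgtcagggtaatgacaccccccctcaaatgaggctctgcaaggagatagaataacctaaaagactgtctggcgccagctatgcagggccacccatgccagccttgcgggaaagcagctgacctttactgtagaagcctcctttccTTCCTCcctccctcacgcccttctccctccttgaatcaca
The κB motif was found in 2 of the 6 matched genes, Csf1 and Csf3r, and in 5.001% of the 32851 promoters of the table over the same 250 bases. GAGGAA was found in 5 of the 6 genes (Csf2ra, Csf2rb2, Csf3r, Trem2 and 1 of the 2 starts of Syk) and in 23.3% of all promoters. A match describes these letters and no binding was measured.

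Csf1 (ENSMUSG00000014599, chromosome 3, 107741048 to 107760469, minus strand, GRCm38), the ligand, had 14.8 CPM (9.49 to 22.0) in control naive, 12.9 (11.1 to 14.9) at day 1, 11.6 (10.0 to 13.4) at day 2 and 39.1 (34.7 to 43.9) at day 3. In A20 cKO it had 15.9 (13.4 to 18.8) in naive, 25.8 (20.4 to 32.1) at day 1, 29.7 (23.9 to 36.5) at day 2 and 47.6 (39.5 to 56.9) at day 3. The linked libraries all lay above the other 3, although A20 cKO naive did so by less than counting error, and within A20 cKO the values of the 3 injured libraries were above that of naive. The extremes, A20 cKO day 3 and control day 2, differed 4.10-fold. In the order of levels, 5 of 7 neighbouring libraries could not be told apart by the interval of their ratio. With each cell thinned to 2000 UMIs, 2.41% to 7.99% of cells held a Csf1 UMI (3.87% to 15.6% at full depth). In the 60 kept cells with fewer than 3 of the 8 microglial markers, all in the linked libraries, a set chosen after the data were seen and with a median of 1406.5 UMIs, the share was 6.67% (1.85 to 16.2). The thinned shares of all 8 libraries lay inside that interval, so none is read as expression in single cells. Il34, the other ligand of CSF1R, had 3 UMIs in all kept cells together, and Csf2 and Csf3, the ligands of the other receptors, had 0, which allows a level of up to 0.0533 CPM.

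Csf1r (ENSMUSG00000024621, chromosome 18, 61100598 to 61132149, plus strand), the receptor of CSF1 and IL34, had 2451 CPM (2375 to 2528) in control naive, 2356 (2331 to 2382) at day 1, 1737 (1717 to 1758) at day 2 and 1758 (1728 to 1789) at day 3. In A20 cKO naive it had 1719.6 CPM (1692 to 1747), followed by 1430.5 (1388 to 1474), 1213 (1174 to 1252) and 1387 (1342 to 1434) at days 1 to 3. Control naive and day 1 were highest, A20 cKO naive lay with the controls of days 2 and 3, and the 3 injured A20 cKO libraries were lowest. The linked and the other libraries overlapped for this gene, since control day 2 fell between control day 3 and A20 cKO naive, with neither of these 2 neighbours told apart from it. Control naive was 2.02-fold above A20 cKO day 2. Csf1r overlaps Hmgxb3 on the other strand. At 2000 UMIs per cell, 95.5% to 99.0% of control cells and 88.7% to 94.8% of A20 cKO cells held a Csf1r UMI. At 1000 UMIs the shares were 69.4% to 92.3% over the libraries. The 60 cells with few microglial markers, not thinned and with a median of 1406.5 UMIs, had 28.3% (17.5 to 41.4).

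**Figure D1:**
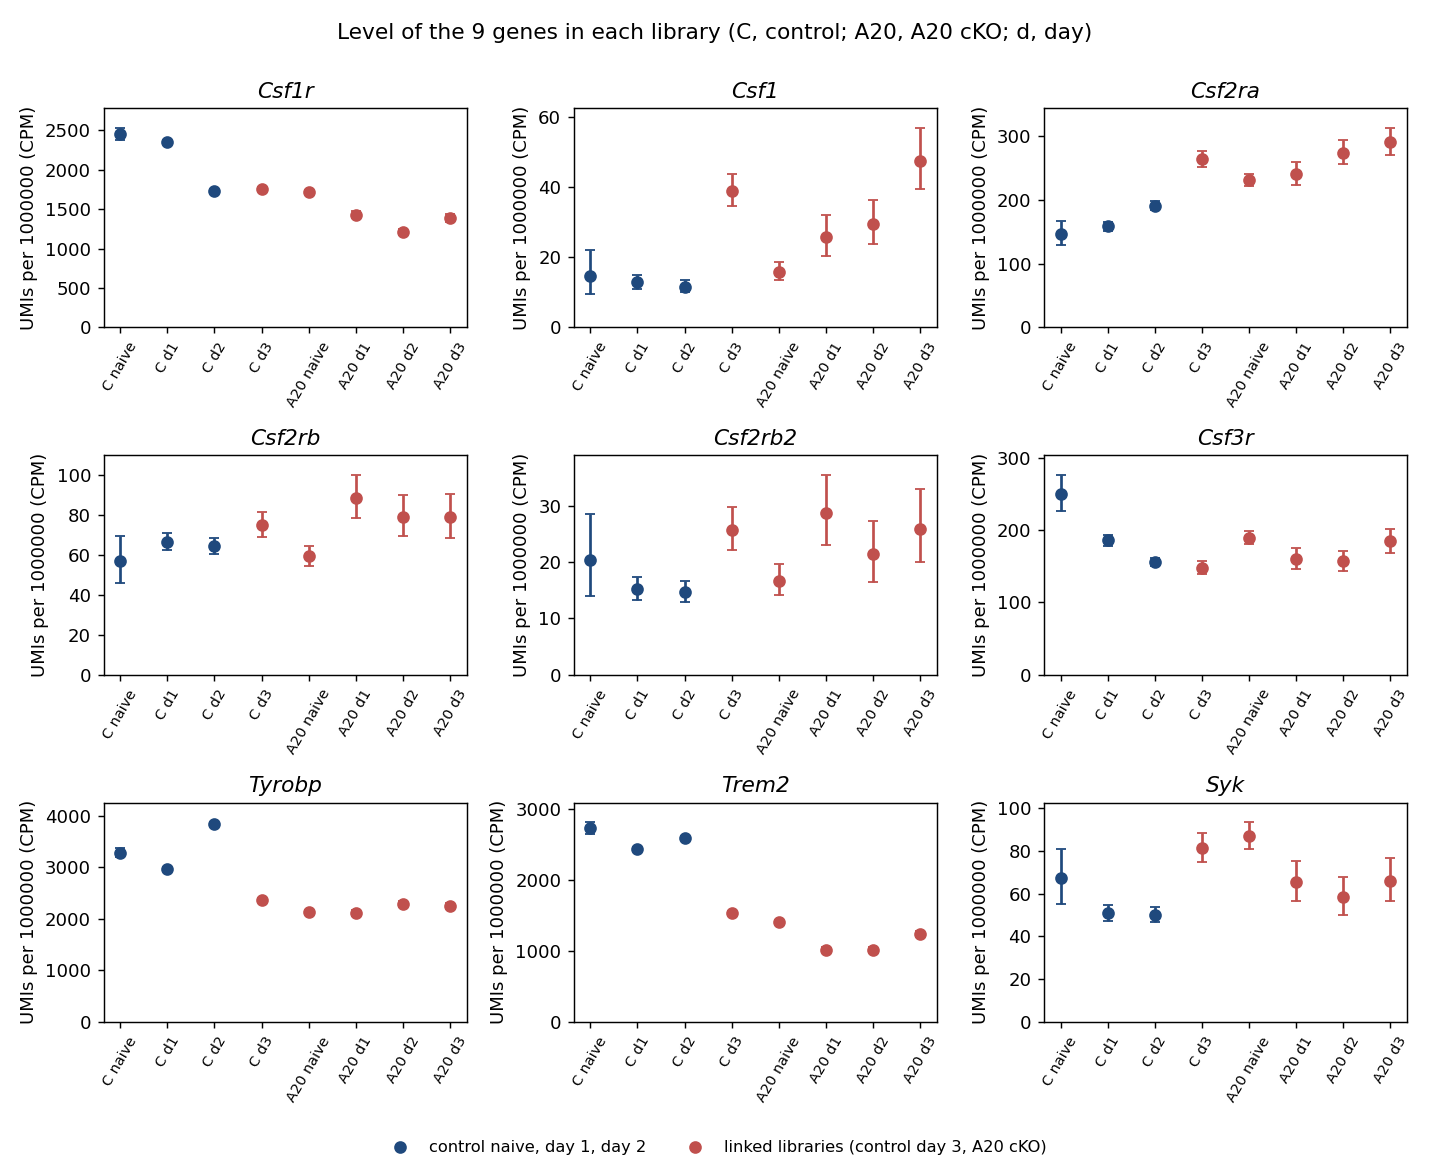
Level of each of the 9 genes in UMIs per 1000000 (CPM) in the 8 libraries, with 95% Poisson intervals that cover counting error only. Csf1 and Csf2ra were higher and Tyrobp and Trem2 lower in all 5 linked libraries (red) than in the other 3 (blue), and Csf1r was lowest in the 3 injured A20 cKO libraries. How many of all genes separate in this way was not counted.

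Csf2ra (ENSMUSG00000059326, chromosome 19, 61223957 to 61228429, minus strand), the ligand-binding chain of the GM-CSF receptor, had 147 CPM (129 to 167) in control naive, 158 (152 to 165) at day 1, 191 (184 to 198) at day 2 and 264 (252 to 276) at day 3. The A20 cKO libraries had 231 (221 to 241), 241 (224 to 259), 274 (256 to 293) and 290.4 CPM (269.8 to 312) in naive and at days 1 to 3. Within each genotype the levels stood in the order of time after injury, with naive and day 1 not told apart in either and days 2 and 3 not told apart in A20 cKO, and all linked libraries were above the others. The thinned shares ran from 23.1% of cells in control naive to 43.7% in A20 cKO day 3, against 15.0% (7.10 to 26.6) of the cells with few microglial markers.

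Csf2rb (ENSMUSG00000071713, chromosome 15, 78325752 to 78353847, plus strand) and Csf2rb2 (ENSMUSG00000071714, chromosome 15, 78282507 to 78305721, minus strand) encode the paired β chains and lie 20031 bases apart. Their transcripts shared 18.4% and 19.0% of their 50-base words in all, but 0 of 451 in the last 500 bases, where 3′ tags fall. Csf2rb had 56.8, 66.4, 64.2 and 74.8 CPM in control naive and at days 1 to 3, against 59.2, 88.5, 79.1 and 78.7 CPM at the same times in A20 cKO. The 2 naive libraries were lowest and the 3 injured A20 cKO libraries highest, with 6 of 7 neighbours not told apart. Csf2rb2 had 14.7 to 28.7 CPM, a median over libraries of 20.9, and no pair of neighbours was told apart. Its extremes, A20 cKO day 1 and control day 2, differed 1.97-fold, a log2 ratio of 0.98 (0.60 to 1.33). In A20 cKO it had 16.7 CPM (14.1 to 19.6) in naive and 28.7 (23.0 to 35.4), 21.4 (16.5 to 27.3) and 26.0 (20.1 to 33.0) at days 1 to 3. Its thinned shares, 3.05% to 5.42%, were close to the 5% (1.04 to 13.9) of the cells with few microglial markers, so they are not read as expression in single cells.

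Csf3r (ENSMUSG00000028859, chromosome 4, 126024550 to 126044440, plus strand), the G-CSF receptor that is also a neutrophil gene, had 251 CPM (227 to 276) in control naive, 186 (179 to 193) at day 1, 156 (149.9 to 162) at day 2 and 148 (139.6 to 157) at day 3. In A20 cKO it had 189 (180.4 to 199), 160.5 (147 to 175), 157 (143 to 172) and 185 (168 to 202) CPM. Control naive was the highest, and A20 cKO day 3 was within counting error of A20 cKO naive. The 6 neutrophil markers were at 0 in control naive, the library with the highest Csf3r. Of the cells thinned to 2000 UMIs, 41.0% held a Csf3r UMI in control naive and 26.3% to 31.4% in the other 7 libraries. At 1000 UMIs the shares were 22.4% in control naive and 13.5% to 17.6% in the other 7. The cells with few microglial markers, not thinned and with a median of 1406.5 UMIs, had 13.3% (5.94 to 24.6). That interval holds all the shares at 1000 UMIs, so no excess over these cells is read from them.

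Tyrobp (ENSMUSG00000030579, chromosome 7, 30413760 to 30417585, plus strand) had 3274 CPM (3187 to 3364) in control naive, 2965 (2936 to 2993) at day 1, 3835 (3805 to 3866) at day 2 and 2363 (2327 to 2398) at day 3, against 2127 (2097 to 2158), 2109 (2058 to 2162), 2288 (2234 to 2342) and 2247 (2189 to 2306) in A20 cKO. Control day 2 was highest, and the 5 linked libraries lay within 2109 to 2363 CPM, below the other 3. Trem2 (ENSMUSG00000023992, chromosome 17, 48346401 to 48354147, plus strand) had 2733 CPM (2653 to 2815), 2436 (2410.0 to 2462), 2601 (2576 to 2626) and 1538 (1509 to 1566) in control naive and at days 1 to 3, and 1414 (1389 to 1438), 1018 (982 to 1054), 1015 (979 to 1051) and 1239.9 (1197 to 1284) in A20 cKO. Its lowest value outside the linked libraries, 2436 CPM, was above their highest, 1538 CPM, and the extremes differed 2.69-fold. Syk (ENSMUSG00000021457, chromosome 13, 52583173 to 52648792, plus strand) had 67.3, 50.7, 50.2 and 81.4 CPM from control naive to day 3, against 87.0, 65.4, 58.3 and 66.1 from A20 cKO naive to day 3. The highest Syk levels were in A20 cKO naive and control day 3, the ranges of linked and other libraries overlapped, and no neighbours in the order were told apart. The extremes of Syk, A20 cKO naive and control day 2, differed 1.73-fold, a log2 ratio of 0.79 (0.65 to 0.94).

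The abundant members were also counted cell by cell. At 2000 UMIs per cell the median cell held 5, 5 and 5 Trem2 UMIs in control naive, day 1 and day 2, 3 in control day 3 and in A20 cKO naive, and 2 in the 3 injured A20 cKO libraries. Cells with no Trem2 UMI numbered 3 of 502 in control naive and 146 of 830 in A20 cKO day 1. The median Tyrobp count was 8 UMIs per cell in control day 2, 6 in control naive and day 1, and 4 in each linked library. For Csf1r the median was 5 UMIs per cell in control naive and 2 in A20 cKO day 2.

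**Figure D2:**
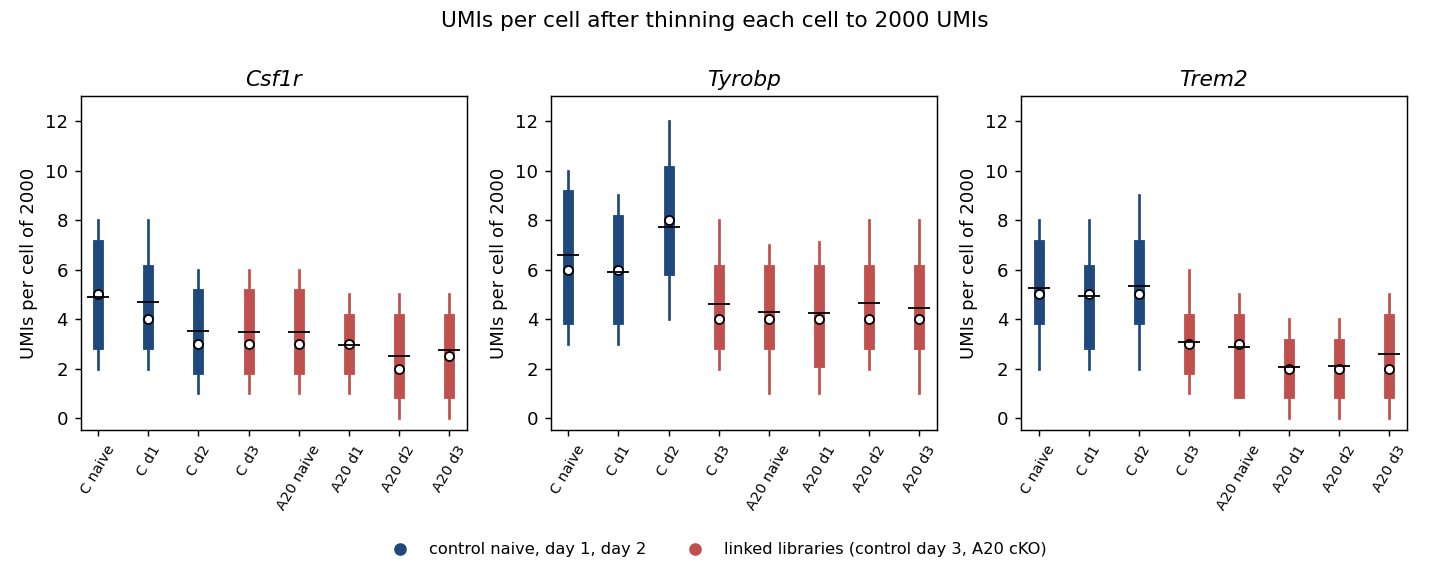
UMIs of Csf1r, Tyrobp and Trem2 per cell after each cell was thinned to 2000 UMIs (thin line, 10th to 90th percentile; thick line, 25th to 75th; circle, median; black dash, mean). The Tyrobp median was 4 in each of the 5 linked libraries (red) and 6 to 8 in the other 3 (blue), and the Trem2 median was 2 to 3 against 5.

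Each library was next set against its reference, as the log2 ratio of CPM minus that of the median gene. A gene counted as past the fold at 1.5-fold or more. No test was possible between single libraries, so the share of all compared genes past the same fold in the same direction is given beside each count. Comparisons that share a naive library are not independent of each other. Of 72 values, 12 were past the fold, 8 higher and 4 lower, and the same 12 were past it without the 349 kept cells whose barcode occurred in more than 1 library.

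In control mice, none of the 9 genes was past the fold at day 1 (background 14.2% higher and 15.3% lower) or at day 2 (16.4% and 14.3%). At day 2, Csf3r was at −0.57 (−0.72 to −0.41), Csf2ra at 0.49 (0.30 to 0.69), Csf1r at −0.38 (−0.43 to −0.33), Csf2rb2 at −0.37 (−0.89 to 0.22) and Tyrobp at 0.35 (0.30 to 0.39). Csf2rb was furthest from 0 among the 9 at day 1, at 0.35 (0.043 to 0.68). Without subtracting the median gene, whose log2 ratio was −0.12 at day 2, Csf3r was past the fold at −0.69. Control day 3 against control naive, which crosses the split, had 2 genes higher (background 17.7%), Csf1 at 1.30 (0.73 to 2.00) and Csf2ra at 0.77 (0.58 to 0.98), and 2 lower (12.9%), Trem2 at −0.90 (−0.95 to −0.85) and Csf3r at −0.83 (−0.99 to −0.66).

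Within the A20 cKO libraries, Csf1 was past the fold on each day: 0.66 (0.24 to 1.06) at day 1, 0.97 (0.57 to 1.36) at day 2 and 1.68 (1.32 to 2.04) at day 3 against A20 cKO naive. Csf2rb2 was past it at day 1, at 0.75 (0.34 to 1.13), and at day 3, at 0.74 (0.29 to 1.16). None of the 9 was past the fold in the lower direction. That made 2 genes higher at day 1 (background 6.01%, lower 6.11%), 1 at day 2 (9.19%, lower 8.06%) and 2 at day 3 (7.55%, lower 6.24%). Trem2, short of the fold, was at −0.51 (−0.57 to −0.46) at day 1, −0.41 (−0.46 to −0.35) at day 2 and −0.091 (−0.15 to −0.034) at day 3. Syk was at −0.45 (−0.68 to −0.22), −0.50 (−0.75 to −0.27) and −0.29 (−0.55 to −0.055), and Csf1r at −0.30, −0.43 and −0.21. The microglial markers summed to 18310.3 CPM in A20 cKO naive and to 12852, 10992 and 12436 at days 1 to 3. The choroid plexus and ependyma markers summed to 129 CPM and then to 407, 397 and 402, and cells with at least 2 markers of another cell type made up 6.95% and then 11.96%, 16.2% and 14.2%. Without such cells the same 12 ratios of all 8 comparisons were past the fold, and Syk at day 2 and Csf2rb at day 1 in A20 cKO were past it too. With the mean of the cells' CPM, Csf2rb at day 1 was also past it.

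Between the genotypes, A20 cKO naive against control naive, again across the split, had Csf2ra higher at 0.60 (0.41 to 0.81; background 17.1%) and Trem2 at −0.996 (−1.05 to −0.95) and Tyrobp at −0.67 (−0.71 to −0.62) lower (10.6%). With all barcodes, or with the mean of the cells' CPM, Csf2ra was short of the fold there. On day 3, where both libraries are linked, none of the 9 was past the fold (6.97% higher, 6.61% lower). There Csf3r was at 0.43 (0.27 to 0.59), Csf1 at 0.40 (0.082 to 0.71), Csf2ra at 0.26 (0.13 to 0.38), Csf1r at −0.22 (−0.28 to −0.17) and Trem2 at −0.19 (−0.25 to −0.14), while Tyrobp was at 0.044 (0.00087 to 0.088), or −0.072 without subtracting the median gene. With the mean of the cells' CPM, Csf1 was past the fold. The summed microglial markers were 12436 CPM in A20 cKO day 3 and 17008 CPM in control day 3, and their part in these values was not tested.

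**Figure D3:**
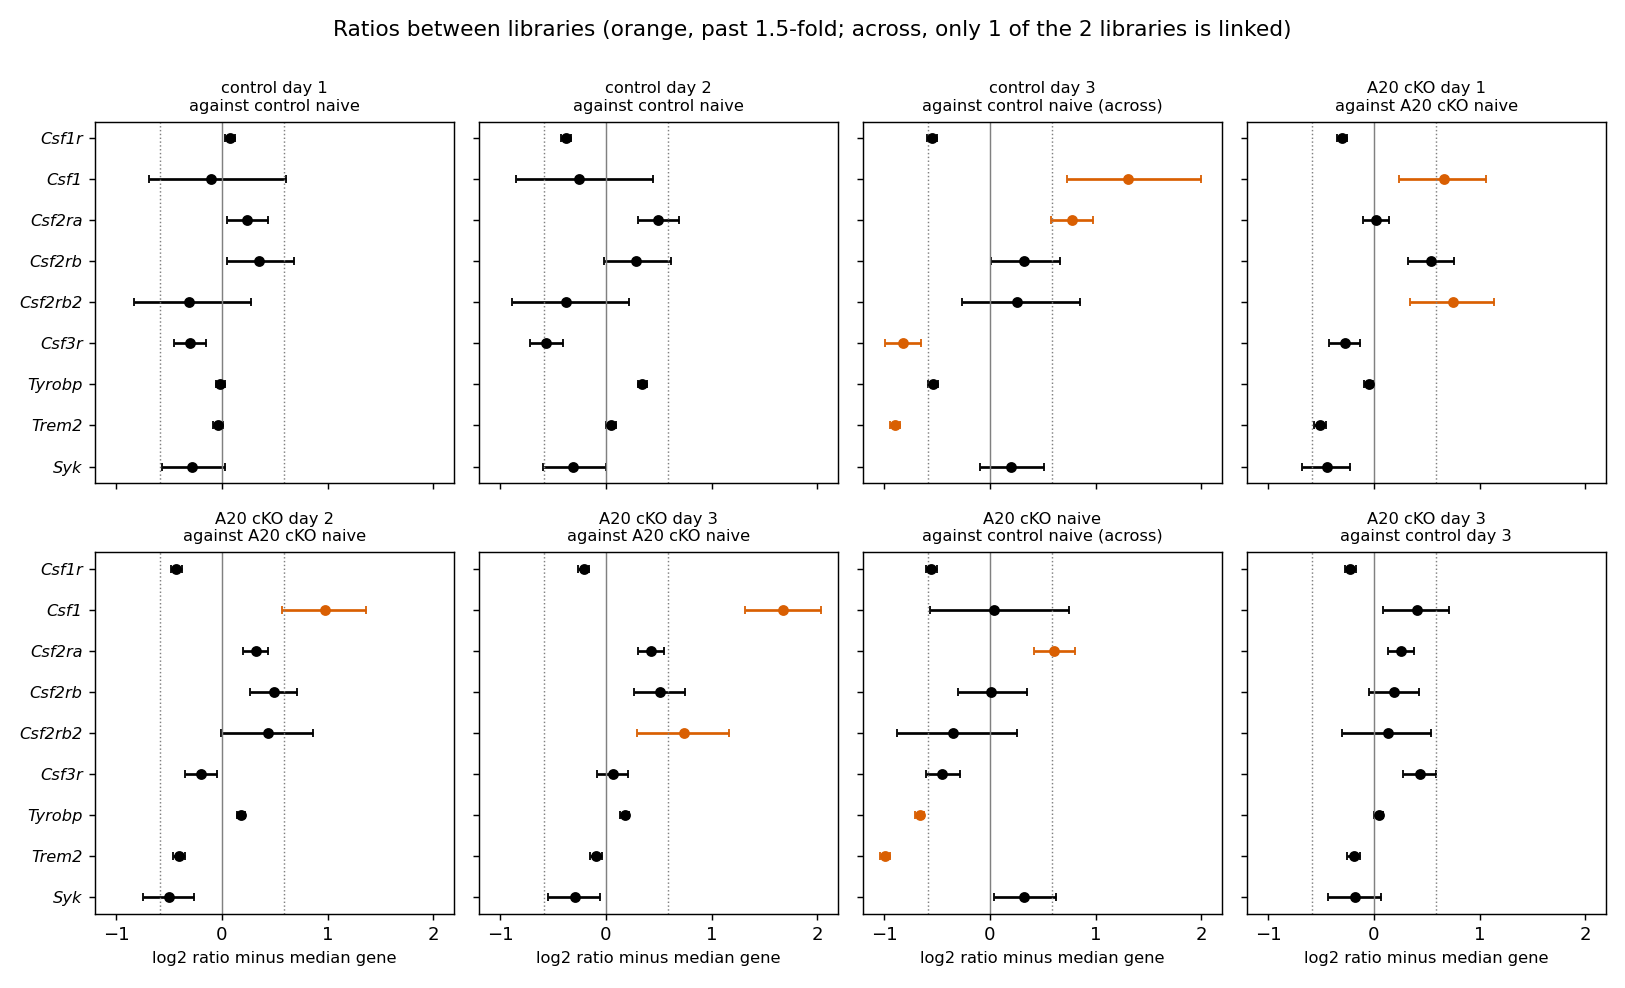
Log2 ratios of the 9 genes in the 8 library comparisons after the median gene was subtracted, with 95% intervals for counting error; dotted lines mark 1.5-fold. Csf1 was past the fold (orange) on all 3 days in A20 cKO, and Trem2 and Tyrobp were lowest in A20 cKO naive against control naive, which crosses the split.

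Another 91 genes of the same pathways were listed in 7 groups, and 66 to 68 of them had enough UMIs to be compared. In control mice 11 of 66 were higher and 15 lower at day 1 (all genes 14.2% and 15.3%), and 4 of 68 were higher and 18 lower at day 2 (16.4% and 14.3%). Across the split, 15 of 66 were higher and 8 lower at day 3 (17.7% and 12.9%). In A20 cKO, with 68 compared, 3 were higher and 3 lower at day 1 (6.01% and 6.11%), 6 higher and 3 lower at day 2 (9.19% and 8.06%) and 10 higher and 0 lower at day 3 (7.55% and 6.24%). The JAK-STAT feedback gene Socs3 had 43.2 CPM in control naive and 599 at day 1, a log2 ratio of 3.91 (3.58 to 4.28), with 109 at day 2. The kinase gene Pim1, a STAT target, had 9.26 CPM in control naive and 46.9, 37.9 and 48.9 at days 1 to 3, and 18.4, 37.0, 36.3 and 24.0 from A20 cKO naive to day 3. Pik3cd, a PI3-kinase subunit, had 37.6 and 37.7 CPM at days 1 and 2 against 85.8 in control naive, and Tec, a kinase gene of the list around SYK, 24.1 at day 1 against 56.2.

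Apoe, whose product is a ligand of TREM2, had 1113 CPM in control naive and 489.8, 469.7 and 310.0 at days 1 to 3, but 854 in A20 cKO naive and 1333, 1573 and 1928 at days 1 to 3. Its log2 ratio in A20 cKO day 3 against control day 3, both linked, was 2.75 (2.68 to 2.83). In that comparison 8 of 67 listed genes were higher and 3 lower (all genes 6.97% and 6.61%), and the inhibitory receptor gene Lilrb4a was furthest, with 118 against 7.27 CPM, a log2 ratio of 4.12 (3.71 to 4.58). Lilrb4a had 4.87 to 10.5 CPM in the 4 control libraries and 54.9 to 118 in the 4 A20 cKO libraries. It has a close paralog, so its tags may be shared with that gene. Pim1 at −0.90 and Siglech, a DAP12-coupled lectin of microglia, at −0.67 were lower. In the naive pair, across the split, 12 of 67 were higher and 5 lower (all genes 17.1% and 10.6%). Lilrb4a was again the highest of them at 2.30 (1.65 to 3.14), and Treml2 had 40.5 against 8.64 CPM, while Hcst (DAP10) was at 29.8 against 49.99 CPM and the phosphatase gene Ptpn6 (SHP-1) at 238 against 367. Treml2 was higher still in control day 3, at 57.4 CPM, a log2 ratio of 2.61 (1.90 to 3.55) to control naive, also across the split. It had 14.3 and 13.8 CPM in control day 1 and day 2. In the A20 cKO course, Cebpa had 192 CPM in naive and 108, 105 and 159 at days 1 to 3. Mitf had 43.1 in naive and then 26.4, 27.7 and 31.9, and the inhibitory receptor gene Sirpa 629 and then 450, 371 and 478. In control, Cebpa had 226 CPM in naive and 359, 135 and 128 at days 1 to 3. The transcription factor genes Cebpa and Mitf belong to the macrophage list. These values have no replicate error.

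Cells that held Mki67 or Top2a UMIs were compared with cells that held none, as UMI sums per library. The 7 libraries with at least 20 cells in each class were the replicates and library was a block, so day, genotype and split were held constant within each pair (edgeR's quasi-likelihood test, Benjamini-Hochberg adjusted over 9797 genes). Of all genes tested, 12.8% were higher and 8.80% lower in the cells with these UMIs. Of the 9 members, 4 fell in CPM, that is as a share of the UMIs of the class: Trem2, Tyrobp, Csf2ra and Csf3r. Counts per cell did not all follow, since the cells with Mki67 or Top2a were deeper. In control day 2 these cells held 19.4 against 14.8 Tyrobp UMIs per cell and 0.97 against 0.73 of Csf2ra. In A20 cKO day 1 they held 0.43 against 0.56 of Csf3r. None rose.

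Csf3r had 91.9 to 151 CPM in the cells with Mki67 or Top2a and 154 to 196 in the cells without, over 7 libraries. It was lower in 7 of 7 libraries, with a log2 fold change of −0.39 ± 0.069 (SE; adjusted p = 0.000393 by edgeR). The library values ran from −0.86 in A20 cKO day 1 to −0.20 in control day 3. Trem2 had 2275 against 2439.9 CPM in control day 1, 2499 against 2723 in day 2 and 1357 against 1604 in day 3. In A20 cKO it had 1088 against 1446 CPM in naive and 862 against 1038, 858 against 1101 and 1065 against 1285 at days 1 to 3. All 7 pairs were lower in the cells with Mki67 or Top2a, by −0.28 ± 0.044 on the log2 scale (adjusted p = 0.000162 by edgeR), which is a change of −17.4%. Tyrobp was lower in 7 of 7, with a log2 fold change of −0.18 ± 0.040 (adjusted p = 0.00323 by edgeR). The gap was smallest in control day 2, at 3758 against 3928 CPM, and largest in A20 cKO day 2, at 2033 against 2429.5. Csf2ra was lower in 7 of 7 as well, by −0.24 ± 0.060 (adjusted p = 0.00660 by edgeR), with values from −0.50 in A20 cKO day 3 to −0.034 in control day 2.

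The remaining 5 did not pass. Csf1r was lower in 6 of 7 libraries, at −0.12 ± 0.041 (adjusted p = 0.0520 by edgeR). It had 2440.1 against 2354 CPM in control day 1 and 1491 against 1742 in A20 cKO naive, the widest gap. Csf1 was at 0.18 ± 0.15 (adjusted p = 0.436 by edgeR) with library values from −0.80 to 0.74, Csf2rb at 0.093 ± 0.087 (adjusted p = 0.506 by edgeR), Csf2rb2 at −0.077 (adjusted p = 0.939 by edgeR) and Syk at −0.15 ± 0.084 (adjusted p = 0.223 by edgeR). These values do not show that the levels were alike. With the classes called on cells thinned to 2000 UMIs, Csf2ra was at −0.27 and no longer passed (adjusted p = 0.0594 by edgeR), while Csf3r, Tyrobp and Trem2 did. Csf1r passed with DESeq2 (adjusted p = 0.00959), in the 5 linked libraries alone (adjusted p = 0.0298 by edgeR) and in 5 of the other 14 alternatives. With cells drawn to match depth it was at −0.073 (adjusted p = 0.318 by edgeR).

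**Figure D4:**
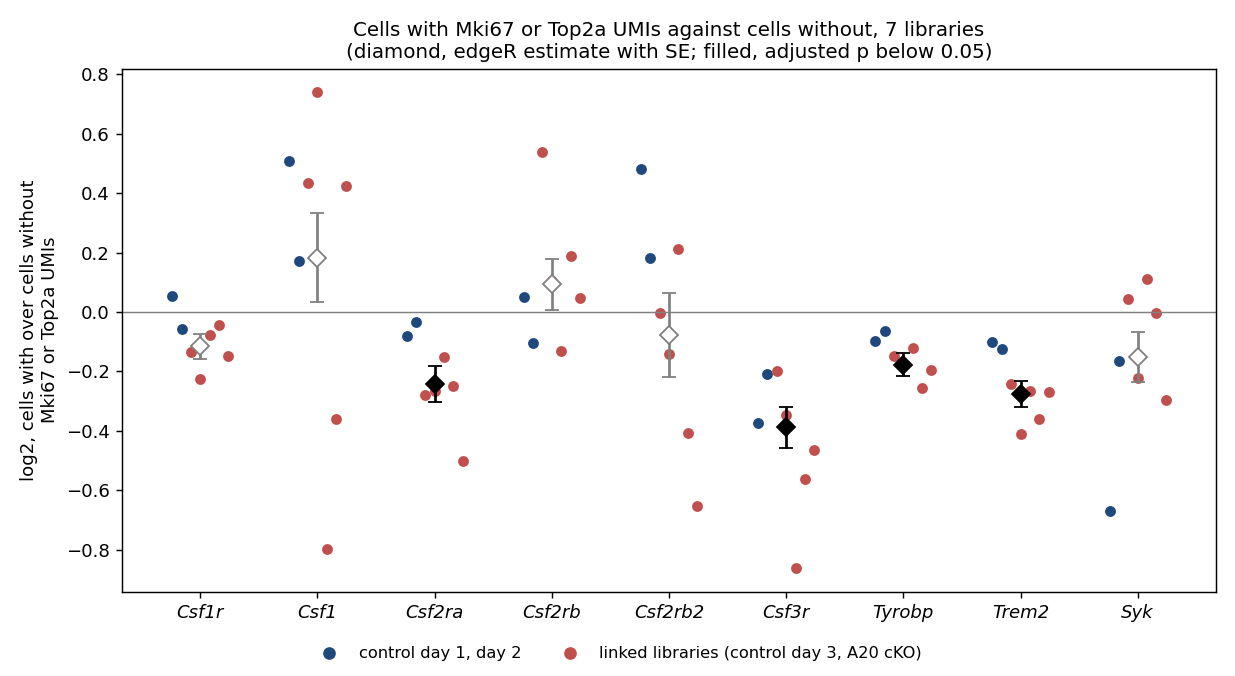
Log2 ratio of cells with over cells without Mki67 or Top2a UMIs for the 9 genes in 7 libraries (dots; blue, control day 1 and 2; red, linked libraries) and the edgeR estimate with its SE (diamonds; filled, adjusted p below 0.05). All dots of Csf2ra, Csf3r, Tyrobp and Trem2 lie below 0.

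Whether this difference itself differed between the 4 A20 cKO and the 3 control libraries was tested as an interaction in the same kind of fit. All 4 A20 cKO libraries are linked, while of the 3 control libraries only day 3 is, so genotype and split cannot be told apart here. None of the 9 genes passed by edgeR or by DESeq2, where 1.08% of all genes passed by edgeR. The edgeR estimates of the 9 ran from −0.43 (Csf2rb2) to −0.0018 (Syk) on the log2 scale, and they do not show that the genotypes were alike. Each tool had 1 member with an unadjusted p below 0.05. Of all genes, 813 of 9797 were below it by edgeR and 422 by DESeq2, so this is not read as a result about the members. By edgeR it was Csf3r, at −0.28 ± 0.12 on the log2 scale (adjusted p = 0.538), and by DESeq2 it was Trem2, at −0.16 (adjusted p = 0.99994).

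Of the 91 listed pathway genes, 70 were tested in the same contrast. In the cells with Mki67 or Top2a 18 of them fell and 2 rose (all genes 8.80% lower and 12.8% higher). The median log2 fold change was −0.11 over the 70 and −0.021 over all genes tested. The inhibitors of ITAM and CSF1R signalling held 6 of the 18, among them Pirb at −0.70 ± 0.12 and Sirpa at −0.49 ± 0.061, of 11 tested. Apoe fell by 0.59 ± 0.13 on the log2 scale, Nfatc2, an NFAT factor, by 0.49 ± 0.12, and Cebpa by 0.42 ± 0.061. Among the macrophage transcription factor genes, Spi1, the gene of PU.1, fell as well, and of the 16 tested CSF1R adaptors and kinases 2 fell (Pik3r1 and Cbl). The 2 that rose were Pim1, at 0.58 ± 0.11 (adjusted p = 0.00105 by edgeR), and the kinase gene Fyn, at 0.52 ± 0.18 (adjusted p = 0.0428 by edgeR).

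**Figure D5:**
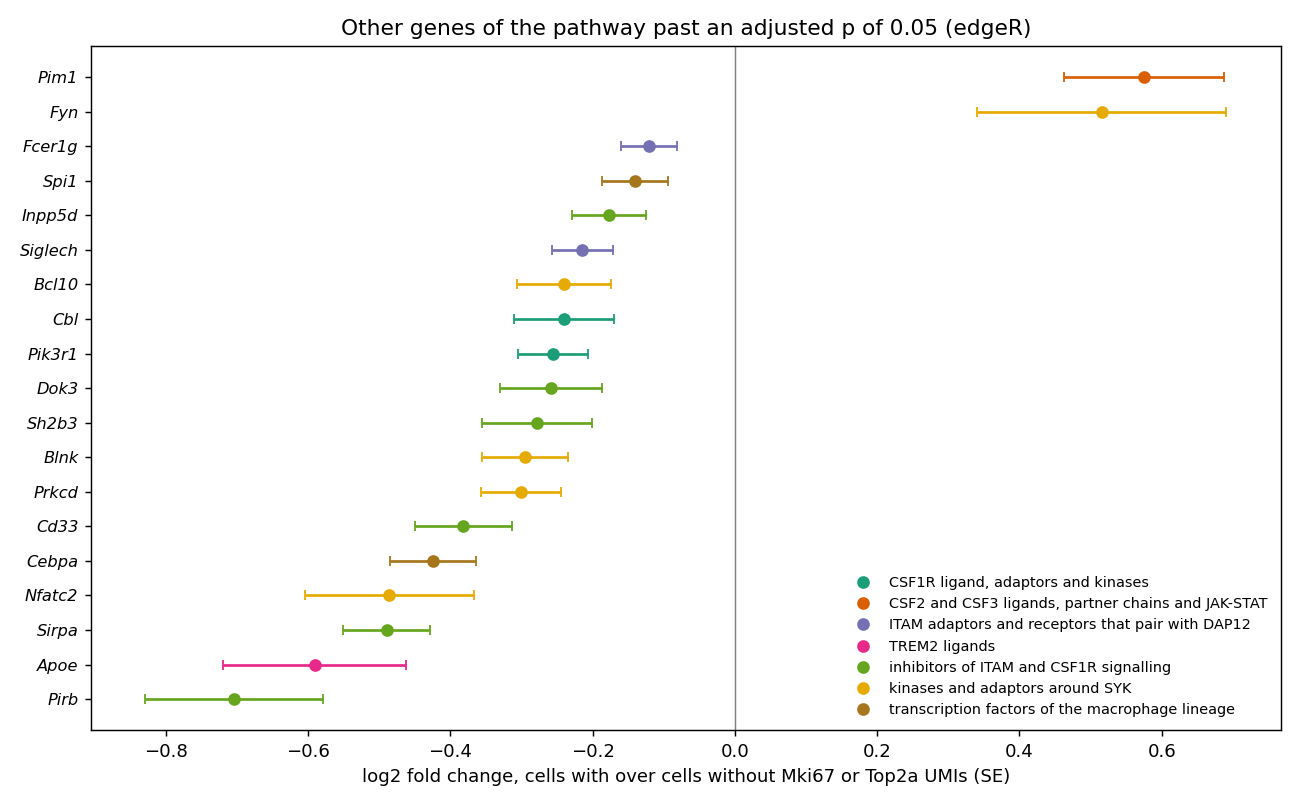
Other pathway genes past an adjusted p of 0.05 between cells with and without Mki67 or Top2a UMIs, as log2 fold changes with their SE (edgeR, 7 libraries), coloured by list. Pim1 and Fyn lie above 0 and the rest of those plotted below, with Pirb the furthest at −0.70.

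Of 3327 genes whose mean level reached 50 CPM, the 3 whose log2 levels over the 8 libraries were most like Csf1r were Fam134b, Trf and Stard3 (Pearson r of 0.98, 0.97 and 0.97). For Tyrobp they were Lamtor4, Fam173a and Fkbp8 (0.98, 0.98 and 0.98), and for Csf1 they were Ogfr, Eif3m and Gltscr2 (0.97, 0.94 and 0.93). The 8 points share the split and the depth of their libraries, and the values only describe likeness.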

How the data were processed

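The deposited values are UMI counts that were not normalized, as 1 matrix of genes by cell barcodes for each of 8 libraries. The submitters' processing notes name Cell Ranger 2.1.1 and mm10. Labels and methods name different versions of the kit. Of 27998 gene identifiers, 27645 (98.7%) matched GENCODE M21 on GRCm38, the source of the coordinates. The 9 genes and the 7 lists were chosen with earlier results of these data known.

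Barcodes with at least 1000 UMIs, 500 genes and at most 10% mitochondrial UMIs were kept (14626 of 14883). The sort excluded doublets per the methods, and no doublet caller was run. Levels are UMI sums scaled to 1000000 (CPM) with exact Poisson intervals, shares have exact Clopper-Pearson intervals, and ratios, with 0.5 UMIs added, have exact conditional intervals, all at 95% and for counting error only. Shares are given at full depth and in the 13691 cells with at least 2000 UMIs thinned to 2000, leaving out 935. Library ratios were limited to genes whose 2 sums held 100 or more UMIs together and subtracted the median gene, whose log2 ratio was between −0.13 and 0.070.

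Sums of cells with and without Mki67 or Top2a were fitted with edgeR 4.0.16 in R 4.3.3 (TMM, filterByExpr, quasi-likelihood test, library as block, 6 residual degrees of freedom), leaving out Mki67 and Top2a, and with DESeq2 1.42.0 as an alternative. The SE was taken from the fold change and its F statistic. The 7 libraries are single pools that differ in genotype and day. The edgeR fits of the cell classes and of the interaction were tested on simulated data, and the DESeq2 fits were not. Other tables were made with Python 3.11.15, NumPy 2.4.6, SciPy 1.17.1 and pandas 2.3.3.

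Besides the 9 genes, those named from the lists were the 2 highest and 2 lowest ratios per comparison past 1.5-fold with a mean of at least 20 CPM, up to 5 called genes in each direction of the edgeR fit, and the 3 genes most alike in level to Csf1r, Tyrobp and Csf1, leaving out mitochondrial, ribosomal-protein, Gm, Xist and Y-linked genes. Spi1, Pik3r1 and Cbl fall outside that rule and were named after their values were seen. Alternatives changed the tool, the filters on genes and cells, the class, the depth and the libraries. The counts over the lists include 1 called gene that is not reported here by name and not plotted. The fit on the 5 linked libraries was added after the data were seen.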

Additional observations from a re-analysis of the deposited data

Results flagged for a closer look

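For 3 genes the log2 ratio to the naive library of the same genotype, minus the median gene, lay on opposite sides of 0 in control and A20 cKO on the same day, with both counting intervals clear of 0. Csf1r on day 1 was at 0.071 (0.024 to 0.12) in control and −0.30 (−0.35 to −0.26) in A20 cKO, a difference of −0.38. Trem2 on day 2 was at 0.045 (0.00070 to 0.090) and −0.41 (−0.46 to −0.35), a difference of −0.45. Tyrobp on day 3 was at −0.54 (−0.58 to −0.50) and 0.18 (0.13 to 0.22), a difference of 0.72, and its control comparison crosses the split between the libraries. Without subtracting the median gene, Csf1r at day 1 in control was at −0.057 (−0.10 to −0.0087) and Trem2 at day 2 in control at −0.072 (−0.12 to −0.027), on the same side of 0 as A20 cKO, while Tyrobp at day 3 stayed on opposite sides, at −0.47 and 0.079. With 1 library per group, these differences were not tested.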

How the results depend on the processing

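Between libraries, no paired analysis was possible by replicate, because the labels give no replicate numbers to pair by. A fit of genotype paired by time point was not run, since it would treat time points as replicates. Library was a block in every fit of the cell classes. The count of all genes called between cells with and without Mki67 or Top2a was 2114, but 810 with the classes called on cells thinned to 2000 UMIs and 1087 with cells drawn to match depth, while the members called were 3 and 4 there. Leaving out 1 library at a time gave 1543 to 2159 genes, 4 to 5 members and 15 to 20 listed genes, and 0 members in the interaction. In the depth-matched draw control day 2 stayed uneven, and with at least 2 UMIs of Mki67 and Top2a control day 1 held too few cells to enter. Tyrobp, Trem2 and Csf3r were called in 16 of 16 alternatives, Csf2ra in 15 and Csf1r in 7. The uncalled Csf1 turned to −0.087 with at least 2 such UMIs and to −0.055 with matched depth, and the uncalled Csf2rb ranged from −0.018, without control day 3, to 0.18 with 1 library left out; the cause was not tested. At a 2-fold limit 2 of the 12 library ratios remained, both of Csf1, since that limit is stricter. Shares of cells fall with thinning by construction, and 200 of 216 recomputed shares lay outside the full-depth interval.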
